A study of Homo sapiens with 2 samples.

Results

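TXNIP, 2 relatives of its arrestin family, the MLX transcription factors that read glucose, the glucose transporter gene SLC2A1 and 3 hexokinase genes were followed in human Seg-1 cells after knockdown of FGF-AS. Members were all probe sets annotated to exactly 1 of the 10 symbols TXNIP, ARRDC3, ARRDC4, MLXIP, MLXIPL, MLX, SLC2A1, HK1, HK2 and HKDC1. This gave 26 of the 41091 single-symbol probe sets of the array, and 10 of its 19775 genes. The genes were chosen by the measured signals of these same arrays, on which TXNIP and HKDC1 were already known to differ, so all values below are a description and none is a test.

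One culture of Seg-1 cells received the FGF-AS siRNA, directed at the antisense transcript of the gene for fibroblast growth factor 2 (FGF2). The other received negative control siRNA, which resembles no known gene. Each group was 1 Affymetrix Human Genome U133 Plus 2.0 array, harvested after 72 hours, with siRNA at a concentration somewhere between 25 and 200 nM. Seg-1 is a tumour line once held to be esophageal and, per the labels, now identified as the lung line H460. Untransfected cells were not analysed here. With 1 array a group, no difference could be set against the variation between cultures, and no p-value is given.

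TXNIP (thioredoxin-interacting protein) is an alpha-arrestin that binds thioredoxin and limits glucose uptake, in part by drawing the transporter GLUT1, the product of SLC2A1, from the cell surface. Its gene is a classic target of MondoA (MLXIP) and ChREBP (MLXIPL), which pair with MLX and act on DNA when glucose-6-phosphate is plentiful. Hexokinases make that glucose-6-phosphate from the glucose that enters the cell, so the genes form a loop of uptake, phosphorylation, sensing and restraint.

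The stretches upstream of TXNIP, ARRDC4, ARRDC3 and HKDC1 are shown because these are the 3 genes that differed by at least 2-fold and the arrestin gene that did not. Each is the 250 bases before the outermost RefSeq start (GRCh38.p14), read 5′ to 3′ on the gene's strand. Capitals mark matches to a carbohydrate response element form, or to the E-box CACGTG, both searched on either strand. The element form was CACGNG, any 5 bases, then CACGNG again, and it can share letters with the E-box. TXNIP lies on the minus strand at chr1:145996580-145996829, ARRDC4 on the plus strand at chr15:97960453-97960702, ARRDC3 on the minus strand at chr5:91383318-91383567 and HKDC1 on the plus strand at chr10:69220082-69220331.
TXNIP: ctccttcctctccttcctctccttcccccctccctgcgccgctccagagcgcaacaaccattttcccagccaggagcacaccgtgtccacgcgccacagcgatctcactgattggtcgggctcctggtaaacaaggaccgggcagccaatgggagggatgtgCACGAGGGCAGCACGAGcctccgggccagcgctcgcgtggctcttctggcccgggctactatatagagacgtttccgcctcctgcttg
ARRDC4: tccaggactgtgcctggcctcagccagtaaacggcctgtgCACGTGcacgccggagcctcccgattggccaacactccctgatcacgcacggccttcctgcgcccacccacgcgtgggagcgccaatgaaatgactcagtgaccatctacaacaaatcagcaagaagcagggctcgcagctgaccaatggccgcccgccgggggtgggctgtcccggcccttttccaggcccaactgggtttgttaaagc
ARRDC3: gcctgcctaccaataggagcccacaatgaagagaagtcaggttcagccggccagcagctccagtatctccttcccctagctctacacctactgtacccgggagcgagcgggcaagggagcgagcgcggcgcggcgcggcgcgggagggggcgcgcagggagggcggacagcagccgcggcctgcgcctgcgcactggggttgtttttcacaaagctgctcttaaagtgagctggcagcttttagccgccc
HKDC1: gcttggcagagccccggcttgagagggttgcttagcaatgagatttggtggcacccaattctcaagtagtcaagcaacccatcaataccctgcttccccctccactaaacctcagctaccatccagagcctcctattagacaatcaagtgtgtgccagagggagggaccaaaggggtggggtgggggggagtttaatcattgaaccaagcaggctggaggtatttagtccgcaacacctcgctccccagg

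The TXNIP stretch held 1 match to the response element form, beginning at position -88 from the start. Of 35116 annotated upstream stretches of the same length, 0.0456% held such a match. ARRDC4 held 1 E-box, at position -210, which 6.34% of all stretches held. The ARRDC3 and HKDC1 stretches held neither. Over all 19 windows of the 10 members, 1 held the element form and 3 held an E-box. The E-box windows not shown were those of MLX (-50) and of an HK2 start (-194 and -149). MLX and HK2 lay within 2-fold on their brightest probe sets. The other TXNIP start held neither motif. The CCAAT box, read on both strands, was present in TXNIP (positions -140 and -105), ARRDC4 (-187, -128 and -67), ARRDC3 (-241) and HKDC1 (-196), and in 32% of all stretches. Of the 19 member windows, 10 held it. These included windows of MLXIP, MLX, SLC2A1, HK1 and HK2, which lay within 2-fold on their brightest probe sets. A match describes letters only, and these arrays did not measure binding.

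Signals are given as deposited, in linear intensity units. The offset of 6.1 was added to every signal before log2 was taken. A log2 ratio is the FGF-AS siRNA value minus the control value, and fold values are on that scale, which understates the change of dim genes. Probe sets were called bright at a mean signal of at least 145.2, dim from 23.9 (the signal minimum) up to that level, and below the minimum otherwise. Disagreement between probe sets of 1 gene gave the only error available. It was an SD of 0.36 for a bright log2 ratio (3050 genes) and 0.58 for a dim one (2365 genes), and it covers neither cultures nor hybridisations.

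The arrays had median signals of 23.1 with FGF-AS siRNA and 25.5 with control siRNA. NUDT6, the gene that FGF-AS is transcribed from, stood at 27.7% and 29.1% of control on its 2 probe sets. Of the epithelial markers, KRT18 read 9327.2 with FGF-AS siRNA and 10152.5 with control siRNA and KRT8 read 3780.9 and 3475.7, whereas EPCAM was dim and CDH1 was below the minimum on both arrays. Lung markers were low. Of the 4, SFTPB read 98 with FGF-AS siRNA and 110.8 with control siRNA, NAPSA 44 and 31.9, SFTPC 59.1 and 14.7, and NKX2-1 11.8 and 24.9, so they differed in both directions. Of 4 fibroblast markers and 3 leukocyte markers with a probe set, 2 each had a mean signal at the minimum or above, namely COL1A1 (151.6 with FGF-AS siRNA and 164.3 with control siRNA), DCN (31 and 42.5), CD3E (52.7 and 33.5) and CD14 (16.8 and 38.3). The means of PDGFRB (28.8 and 7.3), COL1A2 (17.9 and 6.4) and PTPRC (19 and 0.5) were under the minimum. Their part in the results was not tested.

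Of the 10 genes, 9 had a probe set at or above the signal minimum, and MLXIPL did not. On the brightest probe set of each, HKDC1 was at least 2-fold higher with FGF-AS siRNA, TXNIP and ARRDC4 were at least 2-fold lower, and the other 6 lay within 2-fold. Over all 12352 measured genes, 2.05% passed 2-fold upward and 2.72% passed it downward. The 9 genes had a median log2 ratio of 0.06, against -0.02 for all measured genes. Since the set was formed around genes known to differ, nothing is read from the share that passed.

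**Figure D1:**
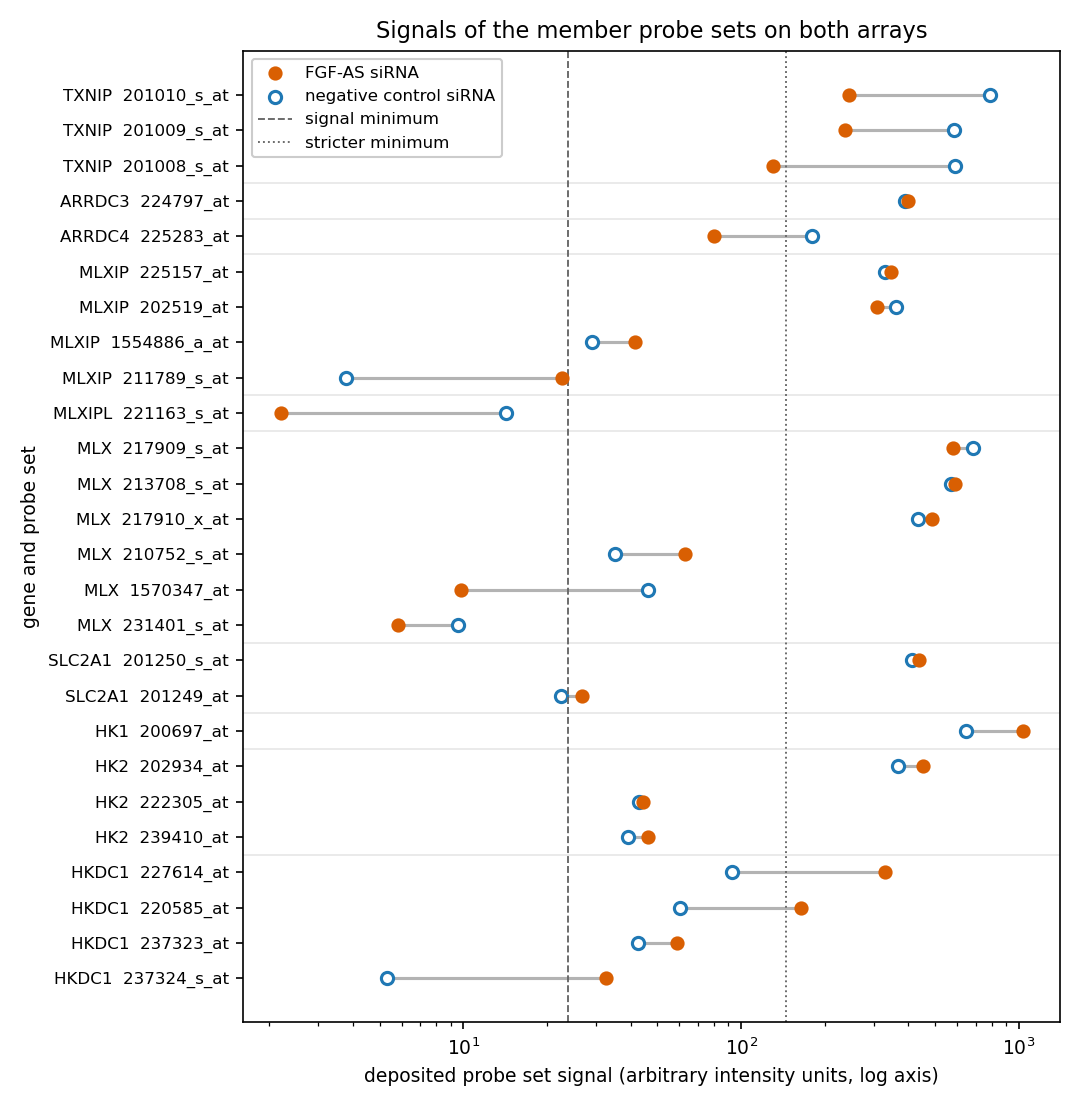
Deposited signal of each of the 26 member probe sets (horizontal log axis, intensity units) with FGF-AS siRNA (filled) and negative control siRNA (open), 1 array each. The 3 TXNIP probe sets and that of ARRDC4 lie further left with FGF-AS siRNA, while all 4 HKDC1 probe sets lie further right. The dashed and dotted lines mark signals of 23.9 and 145.2.

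TXNIP was lower on all 3 of its probe sets, each of them bright. RNA came from whole cultures, so fewer cells with the transcript and less of it per cell cannot be told apart. Probe set 201010_s_at read 244.2 with FGF-AS siRNA and 784.1 with control siRNA, a log2 ratio of -1.66. On 201009_s_at the signals were 237.4 with FGF-AS siRNA and 582.2 with control siRNA, or -1.27 on the log2 scale. On 201008_s_at they were 130.1 and 586.5, or -2.12 on the log2 scale. This probe set was bright by its mean, while its FGF-AS siRNA reading alone was under 145.2. The FGF-AS siRNA signals were thus 31.1%, 40.8% and 22.2% of control, and each log2 ratio was over 3 times the bright probe set SD of 0.36. The 3 ratios averaged -1.68 ± 0.42 (SD across probe sets). On the brightest one TXNIP was the 12th lowest of 7719 genes at or above the stricter minimum of 145.2, where 1.11% of genes were at least 2-fold lower, and the 71st lowest of all 12352 measured genes.

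ARRDC4, an alpha-arrestin that likewise restrains glucose uptake and is a reported MondoA target, was also lower. Its only probe set (225283_at) read 79.7 with FGF-AS siRNA and 180.5 with control siRNA, so that 44.2% of the control signal was left, a log2 ratio of -1.12. The gene lay at percentile 1.82 of those measured, and its ratio was 1.92 times the dim probe set SD. The 2-fold call ended with a larger offset (-0.98), under median centring (-0.99) and under quantile normalization (-0.98). Being a single dim probe set, ARRDC4 had no second reading on these arrays.

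ARRDC3, an alpha-arrestin linked to the turnover of beta-adrenergic receptors and integrin beta 4, did not follow. Its only probe set (224797_at) was bright and read 398.1 with FGF-AS siRNA and 388 with control siRNA, a log2 ratio of 0.04. TXNIP minus ARRDC3 was -1.70 on the log2 scale, with an SD of 0.51 for such a difference from the probe set SDs. ARRDC4 minus ARRDC3 was -1.16, with an SD of 0.68. TXNIP minus ARRDC4 was -0.54, within its SD of 0.68, so the sizes of the TXNIP and ARRDC4 differences could not be told apart on these arrays.

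MLXIP encodes MondoA, the glucose-responsive partner of MLX found in most tissues. Its bright probe sets read 345 with FGF-AS siRNA and 330.4 with control siRNA (225157_at, log2 ratio 0.06), and 307.5 and 360.1 (202519_at, -0.22). Both ratios were smaller than the probe set SD. A dim probe set (1554886_a_at) read 41.6 and 29, a log2 ratio of 0.44, and 211789_s_at read 22.7 and 3.8, below the minimum on both arrays.

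MLX encodes the shared dimerisation partner of MondoA and ChREBP. Its 3 bright probe sets read 578.4 with FGF-AS siRNA and 686 with control siRNA (217909_s_at, log2 ratio -0.24), 588.5 and 568.3 (213708_s_at, 0.05), and 486.6 and 431.7 (217910_x_at, 0.17). None of these differed by more than the probe set SD of 0.36, and they fell on both sides of 0. The dim probe sets went opposite ways. On 210752_s_at the signals were 62.7 with FGF-AS siRNA and 35.2 with control siRNA, a log2 ratio of 0.74, and 1570347_at read 9.8 and 46.2, a log2 ratio of -1.72. The FGF-AS siRNA reading of the last was below the signal minimum, and 231401_s_at was below it on both arrays (5.8 and 9.6). A difference in MLX mRNA was not resolved.

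MLXIPL encodes ChREBP, the glucose-responsive partner best known in liver and fat. Its only probe set (221163_s_at) read 2.2 with FGF-AS siRNA and 14.2 with control siRNA. Both readings were below the signal minimum, so no fold is given.

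SLC2A1 encodes GLUT1, the glucose transporter that TXNIP and ARRDC4 act on. Its bright probe set (201250_s_at) read 435.7 with FGF-AS siRNA and 412.3 with control siRNA, a log2 ratio of 0.08. Its dim one (201249_at) read 26.8 and 22.4, a log2 ratio of 0.21. Neither exceeded the probe set SD, so a difference in SLC2A1 mRNA was not resolved. Transporter at the cell surface was not measured.

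The 3 hexokinase genes all read higher with FGF-AS siRNA, by unequal amounts. HKDC1, which encodes a hexokinase domain-containing enzyme, differed most. Its bright probe set (227614_at) read 330 with FGF-AS siRNA and 92.9 with control siRNA, a log2 ratio of 1.76 or 3.39-fold. The dim 220585_at read 164.2 and 60.3, a log2 ratio of 1.36, and the dim 237323_at read 58.8 and 42.6, a log2 ratio of 0.41. Probe set 237324_s_at read 32.6 and 5.3, with a mean under the minimum. All 4 thus read higher, and of the 3 at or above the minimum 2 passed 2-fold. The ratios of these 3 averaged 1.18 ± 0.69 (SD across probe sets). On its brightest probe set HKDC1 was the 41st highest of all 12352 measured genes. It was the 4th highest of the 7719 genes at or above the stricter minimum, where 0.985% were at least 2-fold higher. Its control reading of 92.9 was under that minimum. HKDC1 thus counted as bright, and entered this ranking, only through the FGF-AS siRNA array.

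HK1, the broadly expressed hexokinase held at the outer mitochondrial membrane, had 1 probe set (200697_at). It read 1031.1 with FGF-AS siRNA and 645.2 with control siRNA, a log2 ratio of 0.67 or 1.59-fold. The ratio was 1.88 times the bright probe set SD, at percentile 94.0 of the measured genes, and short of 2-fold. HK2, the inducible hexokinase of muscle and many tumours, read 449.9 with FGF-AS siRNA and 366.3 with control siRNA on its bright probe set (202934_at), a log2 ratio of 0.29. Its dim probe sets read 44.3 and 42.8 (222305_at, 0.04) and 46.2 and 39.3 (239410_at, 0.20). All 3 HK2 ratios were positive and smaller than the probe set SD.

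HKDC1 minus HK1 was 1.09 on the log2 scale and HKDC1 minus HK2 was 1.47, each with an SD of 0.51 for such a difference. HK1 minus HK2 was 0.38, within that SD. For HKDC1 the SD of 0.51 rests on the bright class of its mean signal. Its control reading of 92.9 was in the dim range, where the probe set SD was 0.58. HKDC1 and HK1 are direct neighbours on chromosome 10 in RefSeq, and the protein-coding gene on the far side of HKDC1, SUPV3L1, read 405 with FGF-AS siRNA and 440.9 with control siRNA, a log2 ratio of -0.12. The next measured gene past HK1, TSPAN15, had a log2 ratio of -0.05. Beside TXNIP on chromosome 1, POLR3GL, which encodes an RNA polymerase III subunit, read 256.2 with FGF-AS siRNA and 517.8 with control siRNA, a log2 ratio of -0.998 and just short of 2-fold. These neighbours were picked after their values were seen.

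**Figure D2:**
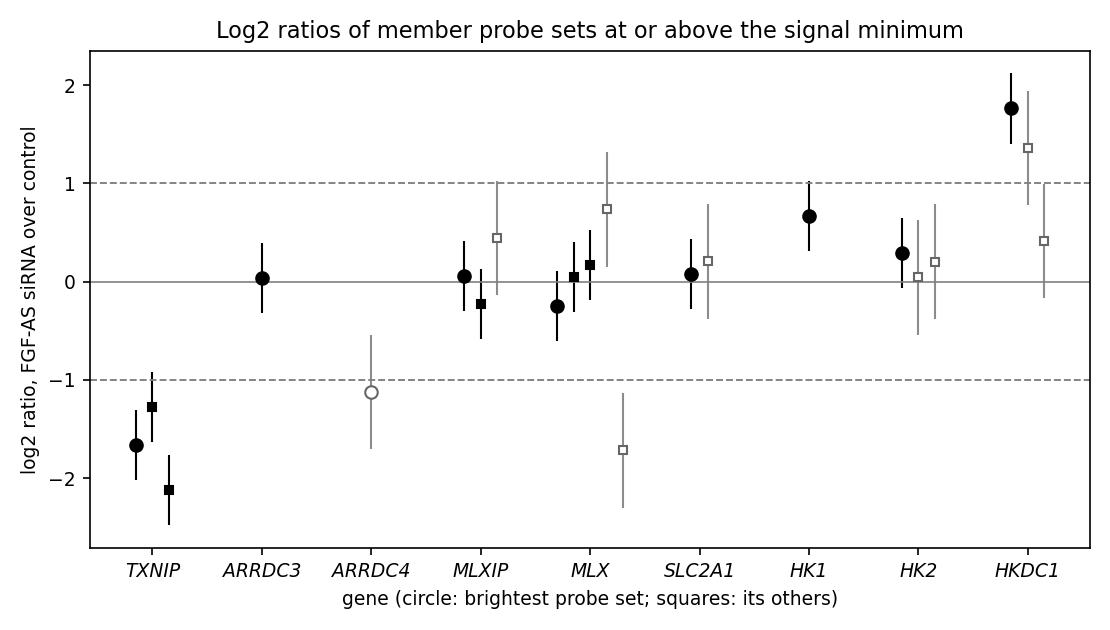
Log2 ratio of FGF-AS siRNA over control (vertical axis) for the 22 member probe sets whose mean signal reached the minimum, by gene. Filled symbols are bright and open ones dim probe sets, and bars are the probe set SD of 0.36 or 0.58. The 3 TXNIP points lie below -1, the MLX points lie on both sides of 0, and 2 of the 3 HKDC1 points lie above 1.

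Counted by probe set, 2 of the 22 at or above the minimum passed 2-fold upward (both HKDC1) and 5 passed it downward (3 of TXNIP, 1 of ARRDC4 and 1 of MLX). Among all 23222 such single-symbol probe sets, 1.94% passed upward and 5.33% downward. Probe sets as a whole thus passed 2-fold downward more often than the brightest probe set of each gene did (2.72%). The MLX probe set counted downward (1570347_at) read 9.8 with FGF-AS siRNA and 46.2 with control siRNA. It reached the minimum only through the control array.

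**Figure D3:**
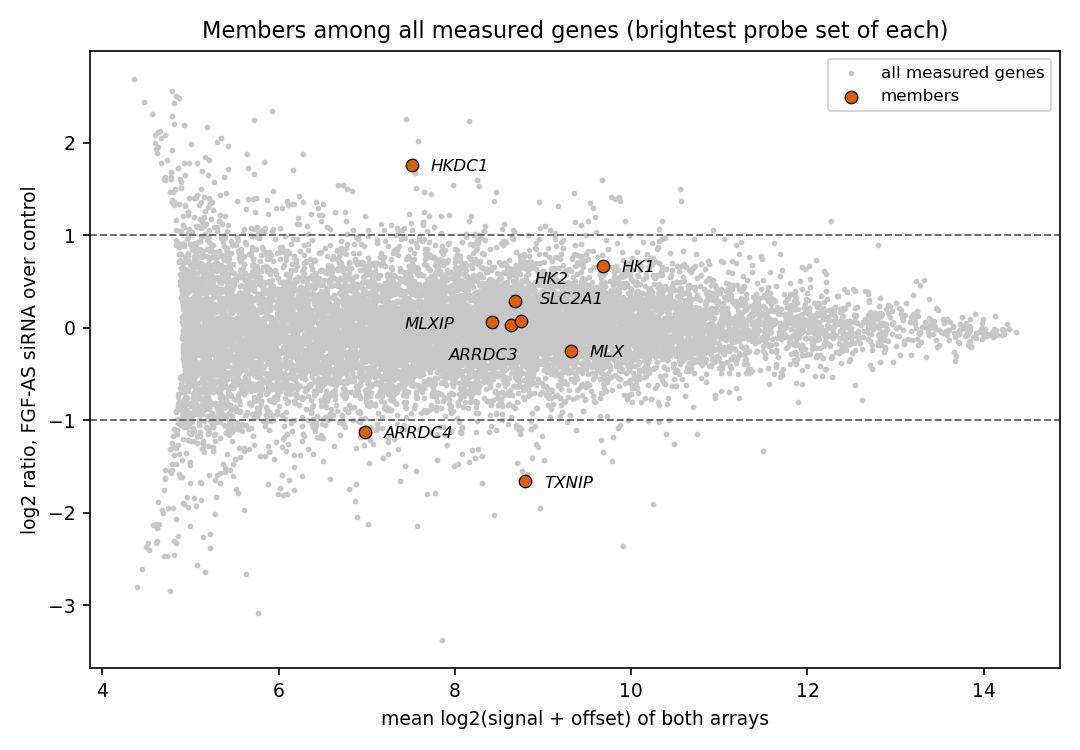
Log2 ratio (vertical axis) against mean log2(signal + 6.1) of both arrays (horizontal axis) for the brightest probe set of all 12352 measured genes (grey) and of the 9 measured members (orange). TXNIP (-1.66) and ARRDC4 (-1.12) lie below the lower 2-fold line and HKDC1 (1.76) above the upper one, while the other 6 lie between the dashed lines.

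The genes closest to TXNIP were sought among those at or above the stricter minimum, by distance between log2 signals on both arrays. They were CARNMT1, a carnosine methyltransferase gene (256.1 with FGF-AS siRNA and 774.3 with control siRNA, distance 0.07), SESN2, a sestrin gene induced by stress (247.7 and 733.5, distance 0.10), and GTF2I, a general transcription factor gene (246.1 and 688, distance 0.19). Closest to HKDC1 were EMP2, an epithelial membrane protein gene (328.7 and 98.4, distance 0.08), HS6ST1, a heparan sulfate sulfotransferase gene (312.9 and 105.6, distance 0.19), and TLN1, which encodes talin (381.1 and 89.4, distance 0.21). The control readings of HKDC1 and of its 3 nearest genes were under the stricter minimum. Their means reached it only through the FGF-AS siRNA array. Likeness over 2 arrays says only that levels and ratios were similar.

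Genes around the loop were read from 8 further lists of 71 genes, of which 54 were measured. Of these, 2 passed 2-fold upward and 1 downward, 5.56% in all, against 4.77% of all measured genes. This share is near that of the whole array. Among the 2 upward was KHK, which reached the signal minimum only through the FGF-AS siRNA array.

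Proteins that bind or turn over alpha-arrestins came first. Among other arrestins, 3 were measured, with a median log2 ratio of 0.32, which was 0.15 when _s_at and _x_at probe sets were dropped and -0.03 at the stricter minimum, and ARRDC2 was furthest from 0 at -0.42 (176.4 with FGF-AS siRNA and 237.6 with control siRNA). The 6 thioredoxin system genes had a median of -0.04 (0.09 under median centring), and TXN itself, the thioredoxin that TXNIP binds, read 16440.7 with FGF-AS siRNA and 15818 with control siRNA, a log2 ratio of 0.06. TXNRD2, the mitochondrial thioredoxin reductase gene, was furthest from 0 at -0.54, with 0.42 on its dim second probe set. Of the 5 ubiquitin ligase genes, 4 were below 0, with a median of -0.74. That median ran from -0.74 to -0.53 over all processing choices tried. Over all measured genes 51.8% were below 0. ITCH, the ligase that marks TXNIP for degradation, read 214.5 with FGF-AS siRNA and 410.3 with control siRNA, a log2 ratio of -0.92, and all 6 of its probe sets lay below 0, from -0.92 to -0.15. None of the 5 passed 2-fold, and WWP1 read 1202.8 with FGF-AS siRNA and 2010.9 with control siRNA.

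Transcription factors and targets of the MLX network did not move one way. Of 7 measured network partners, 5 were below 0 with a median of -0.20, where 51.8% of all measured genes were below 0. Over all processing choices tried, the median of these partners ran from -0.32 to -0.06. MXD1, a MAX partner that represses transcription, was dim and the only one past 2-fold (46 with FGF-AS siRNA and 109.2 with control siRNA, log2 ratio -1.15), with -0.90 on its second measured probe set. Of 9 measured genes reported as MondoA or ChREBP targets, 7 were above 0, where 48.1% of all measured genes were above 0. The list median of 0.13 turned to -0.38 when probe sets of the _s_at and _x_at kinds were dropped. FASN, the fatty acid synthase gene, read 2804.9 with FGF-AS siRNA and 1341.5 with control siRNA, a log2 ratio of 1.06, with -0.21 on a dim second probe set. KHK, the ketohexokinase gene, read 77 with FGF-AS siRNA and 13.9 with control siRNA, a log2 ratio of 2.05, the control reading being below the minimum. TXNIP and ARRDC4 thus differed in the opposite direction from FASN and KHK on their brightest probe sets. They differed in the same direction as the 2 genes of this list below 0. These were GPD1 (32.2 with FGF-AS siRNA and 60.9 with control siRNA, log2 ratio -0.81) and PFKFB2 (46.9 and 62.7, -0.38). A cause of these directions was not tested.

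Other sugar handling genes differed by less than 2-fold. Of 9 measured sugar transporter genes besides SLC2A1, 8 were above 0, with a median of 0.41, where 48.1% of all measured genes were above 0. That median was 0.10 with the mean over probe sets and 0.06 when _s_at and _x_at probe sets were dropped. SLC2A12 read 37.6 with FGF-AS siRNA and 18 with control siRNA, and SLC5A2 read 40.5 and 20.4. Their control readings were under the signal minimum, so both counted as measured only through the array where they were higher. SLC2A9 was nearly level (39.2 with FGF-AS siRNA and 39 with control siRNA). SLC2A6 was furthest from 0 at 0.94 (198.4 with FGF-AS siRNA and 100.5 with control siRNA), and SLC2A3, which encodes the high-affinity transporter GLUT3, read 626.6 with FGF-AS siRNA and 418.9 with control siRNA, a log2 ratio of 0.57. A list of enzymes that make or use glucose-6-phosphate, to which TIGAR was added, had 6 measured genes. Their median was -0.10, which was 0.04 under median centring and -0.42 when _s_at and _x_at probe sets were dropped. Furthest from 0 was TIGAR, a fructose bisphosphatase gene, at -0.49 (825.4 with FGF-AS siRNA and 1163.5 with control siRNA).

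Of the 9 genes for subunits of AMPK, the energy-sensing kinase that acts on TXNIP, and its upstream kinases, 7 were below 0, with a median of -0.27. That median ran from -0.36 to -0.13 over all processing choices tried. The share below 0 over all measured genes was 51.8%. PRKAB2, a regulatory subunit gene, was furthest from 0 on its brightest probe set at -0.81 (270.6 with FGF-AS siRNA and 480.4 with control siRNA). Its other probe sets gave -0.86 and -1.61. PRKAG2 read 211.8 with FGF-AS siRNA and 374.6 with control siRNA, and PRKAB1 read 200.6 and 333.8, while the catalytic subunit genes PRKAA1 and PRKAA2 had log2 ratios of 0.11 and -0.12. TXN, WWP1, GPD1, PFKFB2, SLC2A3, SLC2A9, SLC2A12, SLC5A2, PRKAG2, PRKAB1, PRKAA1 and PRKAA2 were chosen for naming after their values were seen.

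**Figure D4:**
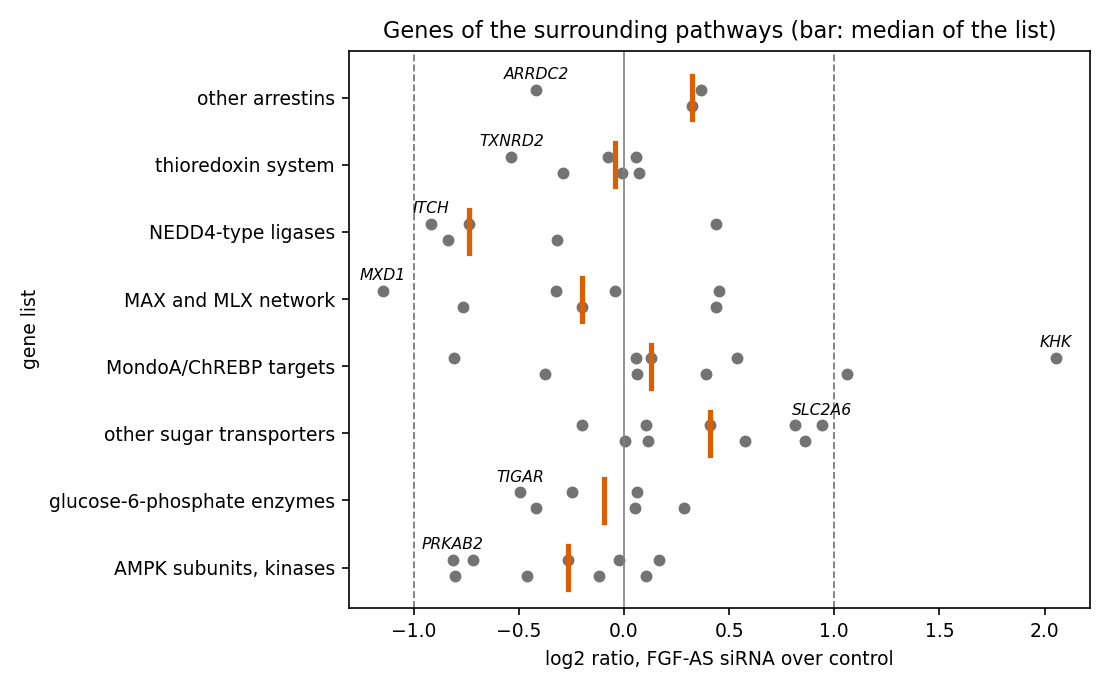
Log2 ratio of FGF-AS siRNA over control (horizontal axis) for each of the 54 measured genes of 8 surrounding lists, brightest probe set each, with the list's median as an orange bar and the gene furthest from 0 named. Medians run from -0.74 (ubiquitin ligases) to 0.41 (sugar transporters), and MXD1, FASN and KHK are the 3 points past the dashed 2-fold lines.

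How the arrays were scaled against each other stays unknown. With median centring the median log2 ratio of measured genes was 0.11 in place of -0.02. Among genes past 2-fold, the share that was higher came to 62.4% after median centring, 60.4% after quantile normalization and 58.2% after loess, against 43.0% as deposited. Under all 5 other offsets and scalings, every TXNIP probe set stayed at least 2-fold lower and HKDC1 probe sets 227614_at and 220585_at stayed at least 2-fold higher.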

How the data were processed

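The authors deposited probe set intensities on a linear scale, 1 column for each of 2 arrays. GCOS and MAS5 appear in the submitters' processing notes, without version, role or scaling target. Per the labels' protocols, total RNA was primed with oligo-dT and transcribed into biotin-labelled cRNA. The number of arrays limits the precision, and detection calls were not used here.

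After removal of 62 control probe sets, 54613 remained. Of these, 41091 had 1 gene symbol, 1801 several and 11721 none in GEO's platform annotation. RefSeq (GRCh38.p14) covered 41037 of the single-symbol probe sets by gene identifier and renamed 0. The offset of 6.1 was the 25th percentile of all signals, the signal minimum the median and the stricter minimum the 75th percentile of probe set means. A gene was represented by its brightest probe set, and called at 2-fold. The SD was pooled within genes that had several probe sets. Named genes were all members, NUDT6, list genes past 2-fold or else the 1 furthest from 0, and the 3 genes nearest to TXNIP and to HKDC1. The members and lists were chosen with earlier results of these data known. Upstream sequences came from RefSeq, which held all 10 members (19 starts). The steps were checked on simulated data and run in Python 3.11.15 with numpy 2.4.6, pandas 2.3.3 and statsmodels 0.14.6. Alternatives were the offset, the scaling, the choice of probe set and the minimum.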

Additional observations from a re-analysis of the deposited data

How the results depend on the processing

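Each array stood alone in its group, so no replicate could be left out. No paired analysis was possible because each group held 1 array and the results come from no test. A log2 ratio or list median was taken to move when it differed by more than the probe set SD, and a count when it differed by more than 1.5 times. HKDC1 moved to 1.18 with the mean over probe sets, and remained past 2-fold. MLX moved to -1.72 when _s_at and _x_at probe sets were dropped, which leaves only the dim 1570347_at, and TXNIP then has no probe set left. The median of MondoA or ChREBP targets moved to -0.38 under the same choice. Counts of genes past 2-fold upward and downward were 253 and 336, against 129 and 165 with an offset of 24.4, 76 and 86 at the stricter minimum, and 1074 and 1270 with no minimum, and the lower count was 223 under median centring. The other 142 values of genes, list medians and counts stayed within these limits, which still let the higher count reach 370 under median centring and the lower count 436 with an offset of 1, and let small list medians change sign. Among single probe sets 7 values moved, all with another offset, at MLXIP 211789_s_at, MLXIPL 221163_s_at, HKDC1 237324_s_at and MLX 1570347_at, which read below the signal minimum on at least 1 array. The other 123 did not move. No called value changed sign.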
